A study of Homo sapiens with 2 samples.

Results

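The ETS transcription factors of blood cells described here are 10 genes, namely ETV6, ETV7, ERG, FLI1, ETS1, ETS2, SPI1, SPIB, ELF1 and GABPA. They were chosen by name, with earlier results of these data known, and all 10 were found among the 57773 gene IDs of the count files. They are part of a family of 28 human ETS genes, of which the other 18 are given for comparison. All 10 reached 10 reads in 1 or both libraries, the minimum used for a comparison. RNA sequencing reads were counted per gene in REH and in 697, established human lines of acute lymphoblastic leukemia from B-cell precursors (BCP-ALL), with 1 library per line and no treatment. REH carries the ETV6/RUNX1 fusion and, per the study, has lost its other ETV6 allele, so that it has no intact ETV6 gene. The line 697 lacks this fusion and is of separate origin, so that the lines differ in more than ETV6/RUNX1. Both came from a cell repository and were grown in the same kind of serum-containing medium. Each line is the culture of a single leukemia, and a difference between these libraries therefore cannot be told apart from a difference between those leukemias, cultures or preparations.

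ETS proteins share a DNA-binding domain, the ETS domain, which recognises a short core sequence in promoters and enhancers. Some members also carry a pointed domain through which they bind each other or other proteins. In blood cells ETV6 and ETV7 act as repressors, SPI1 (also called PU.1) and its relative SPIB control myeloid and B-cell genes, ERG and FLI1 act in stem cells and megakaryocytes, ETS1 and ETS2 act in lymphoid cells and downstream of growth signals, and ELF1 and GABPA serve many lymphoid and housekeeping promoters. In the ETV6/RUNX1 fusion the first part of ETV6, with the pointed domain but without the ETS domain, is joined to nearly all of RUNX1, which brings its own DNA-binding domain.

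The study measured the fusion transcript with primer pairs whose forward primers lie in ETV6, and these are shown because they mark a part of ETV6 that remains in REH transcripts. Each primer is given 5′ to 3′ in lower case.
ETV6-RUNX1 pair 1 forward: agacctggcttacatgaacc
ETV6-RUNX1 pair 2 forward: gaaccacatcatggtctctg
Both forward primers matched exon 5 of the 8 exons of the canonical ETV6 transcript in GENCODE 44, at chr12:11869890-11869909 and chr12:11869905-11869924 on the plus strand of GRCh38. Exons 1 to 5 made up 1463 of the 6144 bases of that ETV6 transcript, or 23.8%.

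The libraries held 45188375 reads in genes for REH and 41097497 for 697. Levels are given as CPM, the reads of a gene relative to the TMM-scaled total of its own library (trimmed mean of M-values), and intervals are 95% intervals that cover counting error only. Ratios are log2 of REH over 697 with 0.5 reads added to each count, and 3 reads, the smallest number taken as detectable, correspond to 0.0597 CPM in REH and 0.0812 CPM in 697. Defining markers of B-cell precursors were present, since all 13 reached 10 reads in 1 or both libraries and only VPREB1, part of the surrogate light chain, was under 10 reads in REH (3 reads, against 10039 in 697). The T-cell markers CD3D and CD2 and the red-cell gene HBB were at 0 reads in both libraries, and the 6 T-cell markers summed to 10.8 CPM in REH and 2.65 CPM in 697. Of these 6, CD247 had 498 reads in REH and 87 in 697, CD3E had 45 and 0 reads, and CD8A had 0 and 10 reads, so that T-cell genes were low but not all absent, and their part in the results was not tested. The 6 megakaryocyte and red-cell markers, HBB among them, summed to 2.96 CPM in REH and 4.41 CPM in 697. Of these, ITGA2B had 132 reads in REH and 65 in 697, and GP9 had 12 and 93. The 4 matched stromal and endothelial markers summed to 9.53 CPM in REH and 10.6 CPM in 697, mostly from COL1A1 (477 and 387 reads). The part of these genes in the results was not tested either. Myeloid markers are given with SPI1.

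SPI1 set the lines apart more than any of the other 9 genes. SPI1 (ENSG00000066336, chromosome 11, 47354860 to 47378547, minus strand, GRCh38) encodes the master regulator of myeloid differentiation, which early B-lineage cells also use. It had 2810 reads in REH and 19 reads in 697. These were 55.9 CPM (53.9 to 58.0) and 0.514 CPM (0.310 to 0.803), so that SPI1 was well expressed in REH and close to the limit of detection in 697. The log2 ratio was 6.73 (interval 6.12 to 7.50), or 106-fold, and 4.18% of the genes tested had a larger ratio in size. Per kb of exon, SPI1 was above 89.7% of the protein-coding genes with 10 or more reads in REH and above 8.96% of those in 697. No annotated gene overlaps SPI1, and its reads in REH lay on the strand of the gene for 50.7%, as they do in a library without strand information.

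SPIB (ENSG00000269404, chromosome 19, 50418938 to 50431314), the close relative of SPI1 that acts mainly in B cells and plasmacytoid dendritic cells, was low in both lines. It had 274 reads in REH and 131 reads in 697, or 5.45 CPM (4.82 to 6.14) and 3.55 CPM (2.96 to 4.21). The log2 ratio was 0.62 (0.31 to 0.93). The relation between these paralogs was therefore opposite in the lines. Per kb of exon, SPI1 exceeded SPIB 21.5-fold in REH (19.0 to 24.5), whereas SPIB exceeded SPI1 3.28-fold in 697 (2.02 to 5.63). A ratio within a library does not depend on how the libraries are scaled. A protein-coding gene on the same strand overlaps 19.6% of the SPIB exon length and had 0 reads in both libraries. Reads in that stretch may have been left out of the SPIB count as ambiguous. The intervals do not cover this, and it was not tested.

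ETV6 (ENSG00000139083, chromosome 12, 11649674 to 11895377, plus strand) was the member with the largest ratio towards 697. It had 1334 reads in REH and 3401 in 697. These gave 26.5 CPM (25.1 to 28.0) and 92.1 CPM (89.0 to 95.2), a level 3.47-fold higher in 697. The counts run over the whole gene, while a fusion transcript that ends its ETV6 part at exon 5 holds a smaller stretch of it. If all ETV6 reads of REH came from exons 1 to 5, as those 1463 bases, REH would stand at 18.1 CPM per kb, against 15.0 CPM per kb over the whole transcript in 697. The log2 ratio would then be 0.28 (0.18 to 0.37), so that the lower gene count of REH need not mean fewer transcripts. The files give 1 count per gene, and where in ETV6 the reads lay was not tested.

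ETV7 (ENSG00000010030, chromosome 6, 36354091 to 36387800), the closest relative of ETV6 and also a repressor, was among the lowest members in both lines. It had 103 reads in REH and 49 reads in 697, or 2.05 CPM (1.67 to 2.49) and 1.33 CPM (0.981 to 1.75). The log2 ratio was 0.62 (0.12 to 1.15), and it ran from 0.25 to 1.19 when each strand was counted alone. Per kb of exon, ETV6 exceeded ETV7 4.25-fold in REH (3.48 to 5.25) and 22.8-fold in 697 (17.2 to 30.9), with the REH value resting on the whole length of ETV6.

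ERG (ENSG00000157554, chromosome 21, 38380027 to 38661780, minus strand), a stem cell factor that is recurrently altered in BCP-ALL, was abundant in both lines and higher in REH. It had 25642 reads in REH and 6001 in 697. The levels were 510 CPM (504 to 516) and 162 CPM (158 to 167), a 3.14-fold difference (3.05 to 3.23). With this, ERG stood above 97.5% of expressed protein-coding genes per kb in REH and above 82.8% in 697.

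FLI1 (ENSG00000151702, chromosome 11, 128686535 to 128813267, plus strand), the nearest relative of ERG, leaned the other way. It had 11866 reads in REH and 13266 reads in 697, or 236 CPM (232 to 240) and 359 CPM (353 to 365). The log2 ratio was -0.61 (-0.64 to -0.57). The order of the pair therefore switched between the lines, with ERG 2.29-fold above FLI1 per kb in REH (2.24 to 2.34) and FLI1 2.08-fold above ERG in 697 (2.02 to 2.15). The antisense lncRNA SENCR, which overlaps 2.02% of the FLI1 exon length, had 63 reads in REH and 190 in 697.

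ETS1 and ETS2, the founding members of the family, differed less than ERG did. ETS1 (ENSG00000134954, chromosome 11, 128458761 to 128587558, minus strand), which supports lymphoid gene programmes, had 7625 reads in REH and 4247 in 697, or 152 CPM (148 to 155) and 115 CPM (112 to 118). The log2 ratio was 0.40 (0.35 to 0.45). ETS2 (ENSG00000157557, chromosome 21, 38805183 to 38824955, plus strand), a target of RAS and MAP kinase signalling, had 12272 reads in REH and 7434 in 697. Its levels were 244 CPM (240 to 249) and 201 CPM (197 to 206), with a log2 ratio of 0.28 (0.24 to 0.32). ETS2 was higher than ETS1 in both lines, 2.31-fold per kb in REH (2.25 to 2.38) and 2.51-fold in 697 (2.42 to 2.61).

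Of the 10 genes, 4 lie in neighbouring pairs. ETS1 and FLI1 are 99.0 kb apart on chromosome 11, and ERG and ETS2 are 143 kb apart on chromosome 21. Neighbours did not share a ratio. Per kb, FLI1 exceeded ETS1 1.39-fold in REH (1.35 to 1.43) and 2.78-fold in 697 (2.69 to 2.88). ERG exceeded ETS2 1.37-fold in REH (1.35 to 1.40), whereas ETS2 exceeded ERG 1.88-fold in 697 (1.82 to 1.95). RUNX1, which lies on chromosome 21 as do ERG, ETS2 and GABPA, was at 455 CPM in REH and 775 CPM in 697. In REH this count does not tell reads of the fusion transcript, which holds nearly all of RUNX1, from those of intact RUNX1.

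ELF1 and GABPA serve many promoters. ELF1 (ENSG00000120690, chromosome 13, 40931924 to 41061440, minus strand), which acts on promoters of lymphoid kinases and receptors, had 19068 reads in REH and 11227 in 697. It was at 379 CPM (374 to 385) and 304 CPM (298 to 310), with a log2 ratio of 0.32 (0.29 to 0.35). Per kb, ELF1 was the highest of the 10 genes in both lines. GABPA (ENSG00000154727, chromosome 21, 25734570 to 25772460, plus strand), the DNA-binding subunit of a factor that drives genes of respiration and the cell cycle, had 2461 reads in REH and 1916 in 697. Its levels of 49.0 CPM (47.0 to 50.9) and 51.9 CPM (49.6 to 54.2) could not be separated by counting error, with a log2 ratio of -0.08 (-0.17 to 0.00) that turned to 0.22 without TMM scaling of the library totals. The count of GABPA is reduced by its neighbour ATP5PF, which lies head to head on the opposite strand and overlaps 12.1% of the GABPA exon length. Reads in that stretch were left out as ambiguous, and the strand columns of GABPA summed to 3240 reads in REH and 2473 reads in 697, above the 2461 and 1916 reads counted on either strand.

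**Figure D1:**
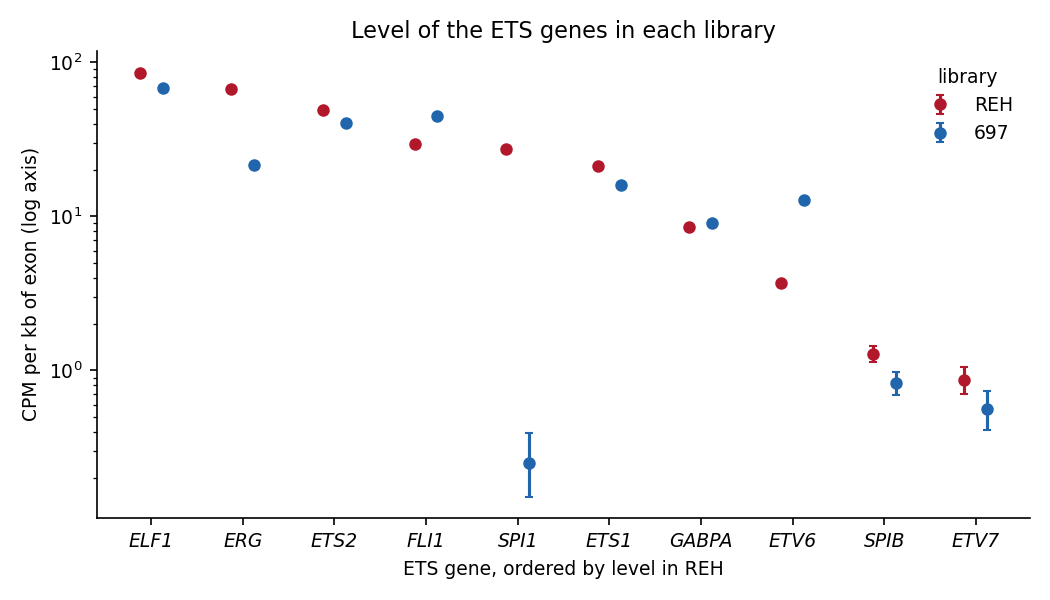
Level of the 10 ETS genes in CPM per kb of exon (log axis) in the REH and 697 libraries, with 95% counting intervals, which are smaller than most points, and with 1 library per line. SPI1 drops from 27.4 CPM per kb in REH to 0.252 in 697, ETV6 stands at 3.67 and 12.7, ERG at 67.4 and 21.5, and ELF1 is the highest in both. ETV6 is divided by its whole exon length in both libraries.

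The order of the levels per kb thus differed between the lines mainly through SPI1, ERG and FLI1, and through ETV6 when its whole exon length is used. If all ETV6 reads of REH came from exons 1 to 5, ETV6 would stand at 18.1 CPM per kb. It would then lie between ETS1 and GABPA in REH, as it does in 697, and this was not tested. In REH the order was ELF1 (85.4 CPM per kb), ERG (67.4), ETS2 (49.1), FLI1 (29.4), SPI1 (27.4), ETS1 (21.2), GABPA (8.53), ETV6 (3.67), SPIB (1.27) and ETV7 (0.863), and no 2 neighbours in it had overlapping counting intervals. In 697 the order was ELF1 (68.4 CPM per kb), FLI1 (44.7), ETS2 (40.4), ERG (21.5), ETS1 (16.1), ETV6 (12.7), GABPA (9.03), SPIB (0.828), ETV7 (0.559) and SPI1 (0.252). Here the intervals of SPIB (0.692 to 0.983) and ETV7 (0.413 to 0.739) overlapped. Counting intervals do not cover the choice of exon length, and with the longest transcript as length ELF1 and ERG lay closer together in REH.

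A threshold of 2 for the size of the log2 ratio was used to single out genes, and 1 of the 10 genes, SPI1, was past it. Of all 19145 genes tested, 20.7% passed this threshold, with 12.5% higher in REH and 8.15% higher in 697. At a threshold of 1, SPI1, ERG and ETV6 passed, against 39.8% of all genes (22.4% higher in REH and 17.4% higher in 697). At either threshold the share of the 10 genes past it was below that of all genes tested. The counting interval lay above 0 for 7 of them and below 0 for 2 (ETV6 and FLI1), beside 40.1% and 38.2% of all genes, which shows that at this depth counting error was small for most expressed genes. The median log2 ratio of the 10 was 0.36, beside 0.05 over all genes tested. Without replicates these ratios carry no p-value and describe the present libraries, and in whole cultures fewer cells that express a gene and less RNA per cell cannot be told apart.

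**Figure D2:**
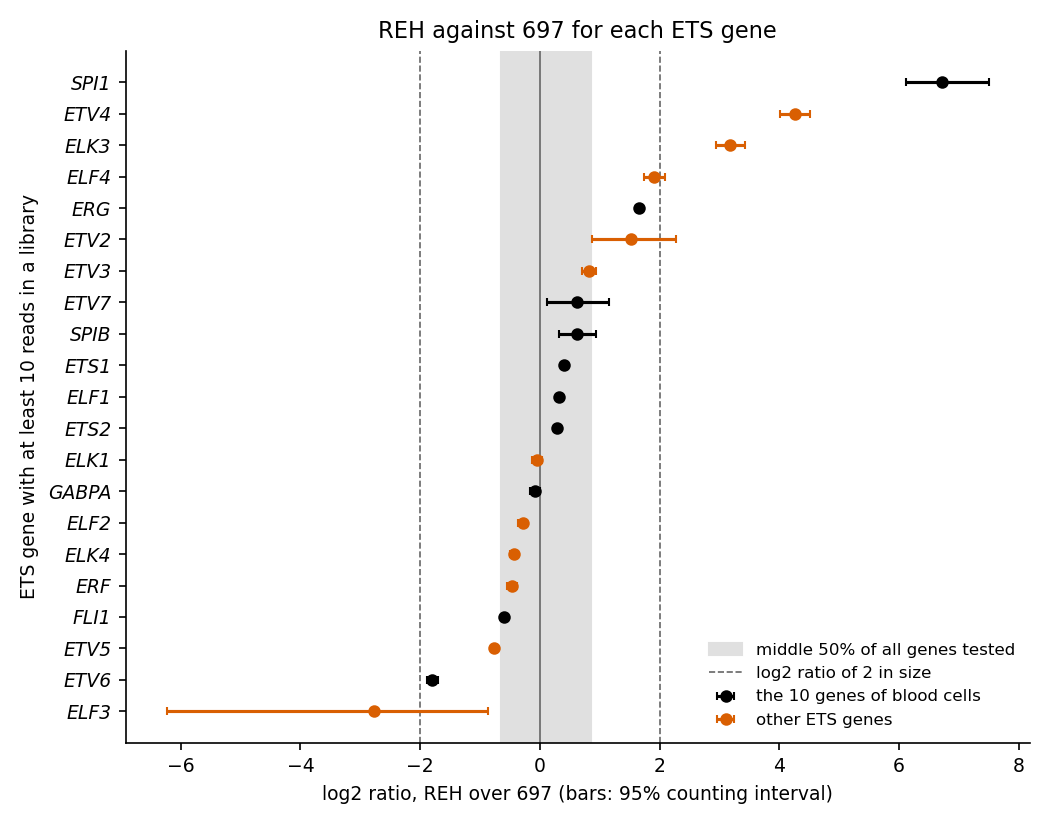
Log2 ratio of REH over 697 for the ETS genes that reached 10 reads, with 95% counting intervals (black, the 10 genes of blood cells; orange, other ETS genes), the middle 50% of all genes tested (grey) and the threshold of 2 in size (dashed). SPI1 (6.73), ETV4 (4.26) and ELK3 (3.18) lie to the right of the threshold and ELF3 (-2.77, from 2 and 12 reads) to the left.

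The remaining members of the family were examined next. Of the 18 other ETS genes, 11 reached 10 reads, and 7 did not, namely ELF5, EHF, ETV1, ETV3L, FEV, SPDEF and SPIC. Past the threshold were ETV4 and ELK3, higher in REH, and ELF3, an epithelial factor, higher in 697 but with 2 reads in REH and 12 in 697. These are 3 of the 11 genes, beside 20.7% of all genes tested. ETV4, a factor induced by growth factor signalling, had 3494 reads in REH and 134 reads in 697, a log2 ratio of 4.26 (4.01 to 4.52). ELK3, a partner of serum response factor, had 1903 and 154 reads (3.18, interval 2.95 to 3.43). ELF4, a close relative of ELF1, had 1677 and 328 reads, and its log2 ratio of 1.91 (1.74 to 2.09) passed the threshold only without TMM scaling, among the alternatives run.

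ETV5, the relative of ETV4 with the same kind of inducer, was abundant in both lines. It had 12082 reads in REH and 15099 in 697, or 240 CPM and 409 CPM (log2 ratio -0.77, interval -0.80 to -0.73). ETV2, a factor of early blood and vessel development, was low, with 91 and 23 reads. ETV3 had a log2 ratio of 0.82, and the ratios of ELF2, ELK1, ELK4 and ERF lay between -0.47 and -0.06, of which those of ELF2 and ELK1 turned positive without TMM scaling. The median log2 ratio of the 11 genes was -0.06 and turned to 0.25 without that scaling.

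To compare the make-up of the family, each gene's level per kb was divided by the sum over all 28 ETS genes in the same library, a share that needs no scaling between libraries. The 10 genes of blood cells held 70.1% of the summed level in REH and 62.2% in 697. Counted as reads, they held 83455 of 116704 ETS reads in REH (71.5%, Wilson interval 71.3% to 71.8%) and 47691 of 75280 in 697 (63.4%, 63.0% to 63.7%). ELF1 kept nearly the same share, 20.3% in REH and 19.8% in 697, and so did ETS2, with 11.7% in each. ERG held 16.1% in REH and 6.22% in 697. FLI1 held 7.01% and 12.97%, SPI1 6.53% and 0.0731%, and ETV6 0.874% and 3.69%, with the REH value of ETV6 resting on its whole length. Of the other ETS genes, ETV5 took 9.92% in REH and 20.5% in 697, where it ranked first, and ETV4 took 4.71% and 0.299%. The family was thus led by ELF1, ERG, ETS2 and ETV5 in REH, and by ETV5, ELF1, FLI1 and ETS2 in 697.

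**Figure D3:**
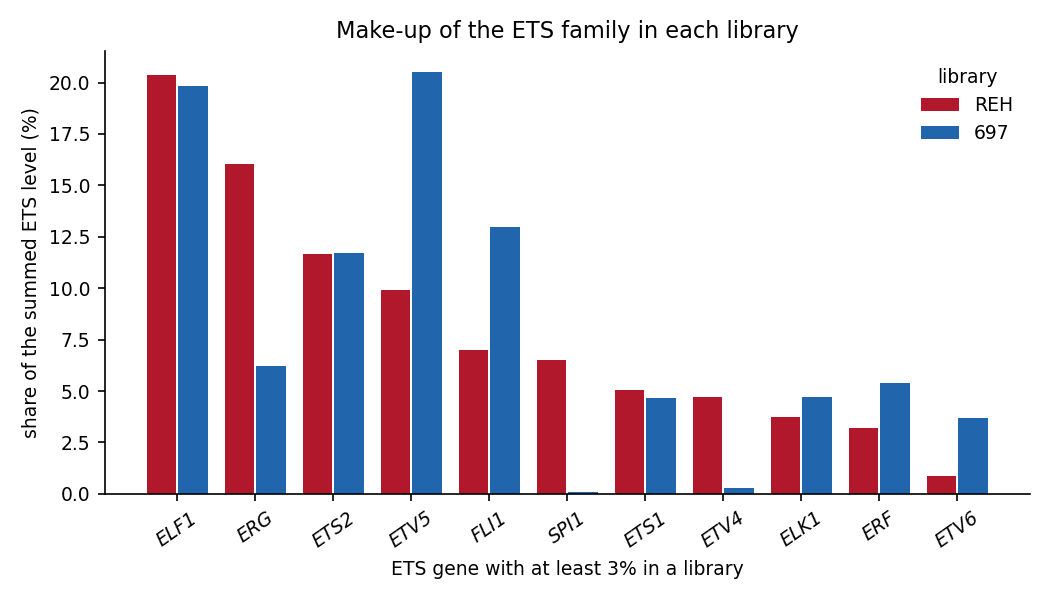
Share of the summed level per kb of all 28 ETS genes (percent) held by each gene in the REH and 697 libraries, for genes with at least 3% in a library. ELF1 and ETS2 have bars of nearly equal height, ERG, SPI1 and ETV4 are taller in REH, and ETV5, FLI1 and ETV6 are taller in 697. ETV6 is divided by its whole exon length in both libraries.

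Genes that work with the ETS proteins were compared as lists, which were chosen with earlier results of these data known. Among 10 DNA-binding partners and coactivators, 8 had a log2 ratio below 0, a number that was 5 without TMM scaling. The median was -0.29, beside 0.05 over all genes tested. Of all genes tested, 48.0% had a ratio below 0.004, which is close to the share below 0. Past the threshold was IRF8, which binds DNA together with SPI1. Its 320 reads in REH and 953 reads in 697 gave a log2 ratio of -2.02 (-2.21 to -1.83), so that SPI1 and this partner leaned in opposite directions. Without TMM scaling, IRF8 did not pass. IRF4, the other partner of SPI1 and SPIB, was at 87.3 CPM in REH and 114 CPM in 697. PAX5, which brings ETS1 to the CD79A promoter, was at 792 CPM and 1224 CPM. GABPB1, the subunit that pairs with GABPA, was at 65.1 CPM and 74.2 CPM, and per kb it exceeded GABPA 1.34-fold in REH (1.28 to 1.42) and 1.45-fold in 697 (1.36 to 1.53). The coactivator CREBBP stood at 598 CPM and 226 CPM (log2 ratio 1.41), and the AP-1 subunit JUN at 12.8 CPM and 25.4 CPM (-0.99).

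The corepressors and interaction partners of ETV6 lay within the threshold. None of the 7 passed the threshold, with a log2 ratio of -0.20 for NCOR1 and a median of 0.00 for the list, and all 7 were above 0 without TMM scaling. None of the 6 enzymes that modify or degrade ETS proteins passed it either. Among these, the ubiquitin ligase COP1 had the largest ratio in size (-0.87, with 45.1 CPM in REH and 82.7 CPM in 697), and the kinase MAPK3 had a ratio of 0.28.

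Known target genes were inspected last, by lists written from general knowledge of each factor but chosen with earlier results of these data known. The shares and medians of all genes set beside these lists are therefore given for scale only, and an excess of targets was not tested. The read minimum could be met in either library, for targets as for all genes tested. CLIC5, BIRC7, ITGAM and CSF2RA met it only in REH. Of 8 targets of ETV6 or ETV6/RUNX1, 7 had enough reads, and 5 of the 7 were past the threshold, all higher in REH, where 12.5% of genes passed in that direction. The median log2 ratio of the list was 3.14. CLIC5, an intracellular channel protein and a gene repressed by ETV6, had 1430 reads in REH and 0 in 697, at least 350-fold higher in REH when 3 reads are taken for the 0. BIRC7, an inhibitor of apoptosis, had 3851 reads and 1 read, which left a lower bound of 8.99 for the log2 ratio. ANGPTL2 (7775 and 649 reads, log2 ratio 3.14) and WBP1L (10641 and 1482 reads, or 212 and 40.1 CPM) were also higher in REH.

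EPOR, the erythropoietin receptor gene, which the fusion is known to activate, had 1365 reads in REH and 31 reads in 697, or 27.2 CPM and 0.839 CPM, with a log2 ratio of 4.99. In contrast, SLC7A11 and BCL2L1 both had a log2 ratio of -0.10, which turned positive without TMM scaling, and MMP3 had 0 reads in both libraries. These targets were compared in lines that differ in many genes, and a link to ETV6 or to the fusion was not tested.

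Of 12 myeloid targets of SPI1, 10 had enough reads, and 6 of the 10 were past the threshold, all higher in REH (12.5% of all genes). The median log2 ratio was 2.92. MPO, the myeloperoxidase of granule-forming myeloid cells, had 12643 reads in REH and 12 reads in 697, a log2 ratio of 9.54 (8.79 to 10.55). ITGAM, the integrin CD11b, had 403 reads in REH and 0 in 697, at least 98.7-fold higher in REH. CYBB, the catalytic subunit of the phagocyte oxidase, had 1349 and 14 reads (6.10, interval 5.39 to 7.02).

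CSF3R, the G-CSF receptor gene, had 920 and 32 reads (4.38), and CSF2RA had 18 reads and 1 read (3.18, with a wide interval of 1.06 to 9.11). Not all of the list leaned to REH, since FES (-0.64) and CSF1R (-1.46, from 30 and 61 reads) had lower values in REH, and LYZ and FCGR1A were at or near 0 in both lines. The 6 myeloid cell markers are all in this list. Their summed level was 279 CPM in REH, of which MPO gave 252 CPM, and 3.11 CPM in 697, where CSF1R gave 1.65 CPM and MPO 0.325 CPM, while the monocyte gene CD14 had 29 and 8 reads and LYZ 1 and 2 reads, and the part of such cells in the SPI1 result was not tested.

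Of 9 B-cell targets of SPI1 and SPIB, 5 had enough reads. MS4A1, the gene of CD20, had 670 reads in REH and 19 reads in 697, a log2 ratio of 4.66 (4.04 to 5.44). BTK, a kinase of the B-cell receptor pathway whose promoter binds both factors, had 8730 and 872 reads (2.88, interval 2.78 to 2.98). CD72 (0.83) did not pass, and BLNK (-1.21) and IL7R (-0.58) were lower in REH. P2RY10, GRAP2, TLR9 and FCGR2B had at most 7 reads in either library.

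The lymphoid targets of ETS1 and ELF1 were divided. CD79B (481 CPM in REH and 120 CPM in 697) and CD79A (655 and 287 CPM), which encode the signalling chains of the B-cell receptor, were higher in REH, whereas the kinases LYN (-2.77, interval -2.90 to -2.64) and BLK (-1.24) were higher in 697. CD79B lay at the threshold, past it here but not with DESeq2 size factors or with 5 reads added. Of the 8 stem cell and endothelial targets of ERG and FLI1, 4 had enough reads and all 4 had ratios above 0. Their median was 3.41, beside 0.05 over all genes tested, of which close to 48.0% lay below 0. HHEX, a homeobox gene of early blood cells, had 1632 reads in REH and 35 in 697 (5.08, interval 4.62 to 5.63). TIE1, a receptor of endothelial and stem cells, had 923 and 20 reads (5.05, interval 4.45 to 5.80). LYL1 (1.77) and LMO2 (1.14) were below the threshold, and TAL1 had 0 reads in both lines.

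Megakaryocyte targets of FLI1 were hardly expressed, with a summed level of 8.73 CPM in REH and 8.80 CPM in 697. GP9, a platelet glycoprotein, had 12 and 93 reads (-3.35), GP6 had 30 and 2 reads (3.16, interval 1.48 to 6.57), ITGA2B had a log2 ratio of 0.57 and GP1BA one of 0.12, and PF4 had 0 reads in both. The 9 targets of GABPA all had log2 ratios below 0, between -0.85 for TFB1M and -0.11 for COX5B, and 2 of the 9 turned positive without TMM scaling. TFB2M (-0.81) and POLRMT (-0.80), which like TFB1M serve the mitochondrial genome, were next. No target of GABPA passed the threshold. The median of the 9 was -0.64, beside 0.05 over all genes tested, of which close to 48.0% lay below 0.

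**Figure D4:**
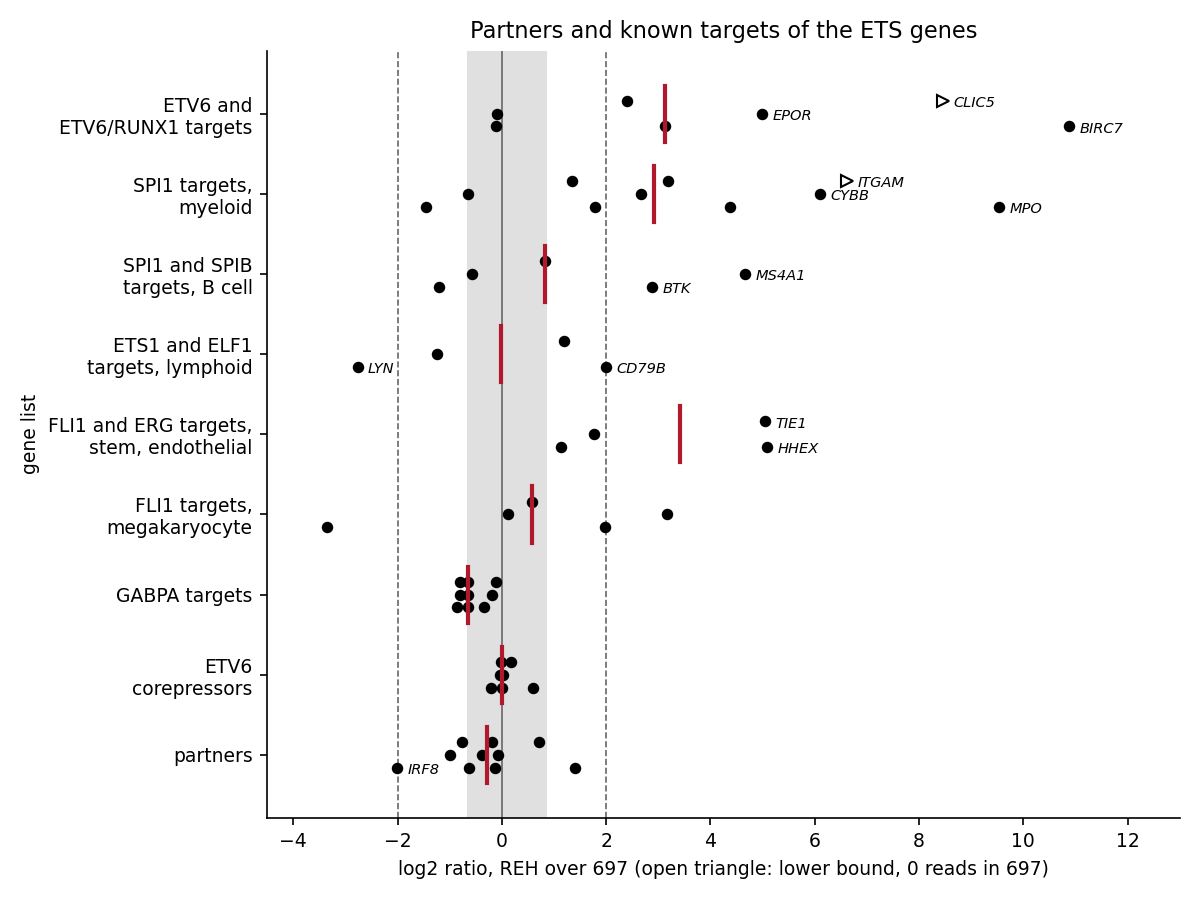
Log2 ratio of REH over 697 for partners and known targets of the ETS genes that reached 10 reads (points; open triangles are lower bounds where 697 had 0 reads), with the median of each list (red), the middle 50% of all genes tested (grey) and the threshold of 2 in size (dashed). CLIC5, BIRC7, EPOR, MPO, ITGAM and CYBB lie far to the right, while GABPA targets and ETV6 corepressors all lie within the threshold. Names are given for genes past the threshold that are among the 3 largest of their list by ratio, counting only genes that reached 100 reads.

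Since the fusion binds DNA through the RUNX1 part and ETS proteins bind an ETS core, promoter windows from RefSeq (GRCh38.p14) were searched for both motifs. A window holds 250 bases before and 50 bases after a start of transcription. Such windows were found for 6 of the 10 genes (ETV6, ERG, ETS2, SPIB, ELF1 and GABPA, 12 windows), and none was matched for ETV7, FLI1, ETS1 and SPI1. The ETS motif CGGAAGT on either strand was in 1 of the 12 windows, that of GABPA, and in 6.83% of all 35116 windows. The RUNX motif TGTGGT on either strand was in 1 of the 12, that of ETS2, and in 13.1% of all windows. No stretch of these windows matched both motifs. In the stretches below, the capitals mark the match, which is on the minus strand in both.
GABPA, chr21:25734893-25734922: cacctccgctctACTTCCGgccctggctcc
ETS2, chr21:38804933-38804962: aaaaacggaaACCACAgtgtagggggtggt
The match lies 67 bases before the start in GABPA and 240 bases before it in ETS2. These are matches of letters, and binding was not measured.

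The start of ETV6 is shown as well, because both the intact gene and the fusion are transcribed from ETV6. It holds neither motif in the 250 bases before the start.
ETV6, chr12:11649424-11649673: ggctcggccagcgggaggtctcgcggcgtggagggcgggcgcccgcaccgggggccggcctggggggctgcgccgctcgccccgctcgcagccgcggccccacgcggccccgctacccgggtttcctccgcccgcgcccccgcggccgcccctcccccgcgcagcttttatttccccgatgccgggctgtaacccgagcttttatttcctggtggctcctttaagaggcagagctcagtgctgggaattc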

How the data were processed

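RNA from the lines REH and 697 was sequenced in 1 library for each, and the line was taken from the sample labels. The authors deposited raw counts of reads by gene, made with STAR, on either strand and on each strand, without normalization or filter. The study's methods name hg38 and poly(A) purification, whereas the submitters' processing notes name hg19 and the labels ribodepletion and stranded libraries. The annotation release is not given in the sources used here. Reads mapped to several places are absent from the gene counts. Rows that name no gene (unmapped, multimapping, outside genes or ambiguous) held 29.3% of the REH and 30.3% of the 697 reads and were left out.

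Counts on either strand were used, since neither strand total exceeded the other by a factor of 2. Symbols, GRCh38 positions and merged exon lengths came from GENCODE 44 by gene ID (51996 of 57773 IDs matched); lengths per kb may differ from those used in counting. Library totals were TMM-scaled in edgeR 4.0.16 under R 4.3.3, and CPM computed from them. Genes that reached 10 reads were compared by the log2 ratio with 0.5 reads added. Its interval follows from an exact (Clopper-Pearson) interval for the fraction of both libraries' reads that came from REH, and single levels have exact Poisson intervals. With 1 library per line there is no test and no p-value. Reads without molecular identifiers are not independent molecules, so intervals and floors cover counting error only. The alternatives tried were unscaled totals, size factors of DESeq2 1.42.0, TMM from protein-coding genes or without mitochondrial genes, other minimum reads, 5 reads added, each strand column, a threshold of 1 and the longest transcript as length. Of each list, all ETS genes and otherwise the 3 genes with the largest ratio among those with at least 100 reads were named, with RUNX1, GABPB1, IRF4, PAX5 and overlapping genes; further genes were named after their values were seen. The members and lists were chosen with earlier results of these data known. PECAM1, among the stromal markers, had no matching ID. Protein sequences were not analysed here. Some genes and a primer sequence are not reported here. The ratios of REH over 697 and their intervals were tested on simulated data.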

Additional observations from a re-analysis of the deposited data

How the results depend on the processing

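Of 70 recomputed ratios of the 10 genes, without the read minimums, which cannot move a ratio, 59 stayed within their counting interval, 10 moved out of it with the same sign, and 1 changed sign. Unscaled totals raised all ratios by 0.31, which moved the median of the 10 genes to 0.67 and turned GABPA to 0.22. They left 0 of the 10 partners past the threshold, beside 21.5% of all genes tested. The cause of these changes was the scaling itself. Other moves came from the strand columns. Reads on the strand of the gene alone put ETV6 at -1.64, ETV7 at 1.19 and ERG at 1.69. Reads on the opposite strand alone put ETV6 at -1.91, and ETV7 at 0.25, within its interval. SPI1 stayed between 6.37 and 7.14 under the alternatives run for it, and was past the threshold in each. With DESeq2 size factors 1 of 4 lymphoid targets of ETS1 and ELF1 was past the threshold in place of 2, beside 20.7% of all genes tested. With 5 reads added, 1 of these 4 and 1 of 5 megakaryocyte targets were past it, beside 15.4% of all genes tested. At a log2 ratio of at least 1, 3 of the 10 genes, 5 of 11 other ETS genes and 2 of 10 partners passed. So did 4 of 4 lymphoid targets of ETS1 and ELF1 and 4 of 4 stem cell targets. Of all genes tested, 39.8% passed at that threshold. The share of the summed ETS level held by the 10 genes became 69.8% in REH and 60.9% in 697 with the longest transcript as length, and 62.7% in 697 with the column of reads on the opposite strand. With the longest transcript as length, ELF1 held 18.2% and ERG 17.9% of the summed ETS level in REH. With REH reads of ETV6 divided by the length of exons 1 to 5, an alternative added after seeing the data, the ratio of ETV6 was 0.28. No paired analysis was possible because only 1 library of either line was used here, and for the same reason no replicate could be left out.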
